A study of Homo sapiens with 6 samples.

Results

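Of the gap junction connexins and the pannexin examined here (GJA1, GJB2, GJB5, GJB6, GJC1 and PANX1), GJB2 was the member with large differences between the groups. Its transcript was raised by the CYLD siRNA and raised again by an ALK5 inhibitor, a compound that blocks the kinase of the type I receptor for TGF-β. The 6 genes were taken by their symbols in the platform annotation, out of 19775 genes with a probe set of a single symbol, and had 12 probe sets. GJC1 and PANX1 had 4 probe sets each and the other 4 genes 1 each. A probe set was kept for testing if its mean in at least 1 group lay above a signal of 79.3, the median of all values. By this rule 10 of the 12 probe sets and 4 of the 6 genes were tested, and GJA1 and GJB6 were not.

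The samples were 6 Affymetrix arrays of SAS cells, a long-established line from a human squamous carcinoma of the mouth. Cells received a control siRNA (siCtrl) or an siRNA to CYLD (siCYLD), which encodes a deubiquitinase that restrains NF-κB signalling. They were grown for 2 days and then kept for 48 h in medium without serum, with either DMSO or the ALK5 inhibitor. There were 2 arrays of siCtrl with DMSO, 2 of siCYLD with DMSO, 1 of siCtrl with inhibitor and 1 of siCYLD with inhibitor. All groups thus shared the transfection and the serum-free culture, and the DMSO groups are called untreated below. The labels name neither the inhibitor compound nor a second CYLD siRNA, and all arrays are of 1 cell line. Whether duplicates came from separate cultures is not stated, so every p-value here rests on an array-to-array spread that could be technical. Labels conflicted for 2 arrays: the source name of siCYLD replicate 1 was that of control cells, and the source name of siCtrl replicate 2 was that of CYLD siRNA cells. Titles decided the group. As an alternative, a model additive in siRNA and inhibitor was fitted without both of these arrays, leaving 1 array per group. Its siRNA difference averages the untreated and the inhibitor pair, so it is not the untreated difference alone.

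Array values, called signals, had the same trimmed mean of 500.1 on all 6 arrays. Duplicates correlated at 0.987 (siCtrl) and 0.988 (siCYLD), against 0.964 to 0.966 between untreated siCtrl and siCYLD arrays, over the log2 values of all genes tested. CYLD had 7 probe sets, 4 of them kept, and all 4 read lower in untreated siCYLD. The probe set that represented the gene differed by -0.80 on the log2 scale (adjusted p = 0.0065, limma; -0.66 and 0.0589 without siCtrl replicate 2). The one with the largest difference, singled out after its values were seen, read 485 and 550 in untreated siCtrl, 77.2 and 125 in untreated siCYLD, and 421 and 71.1 in the siCtrl and siCYLD inhibitor arrays. Of 12 squamous epithelial markers, 8 had a probe set of a single symbol. Most were high, with EPCAM at 20221 to 21944 and CDH1 at 11742 to 15156, but the basal keratin gene KRT14 read only 62.3 to 148 and PKP1 3.75 to 85.7. KRT5 read 900 to 1245 in untreated arrays and 12525 and 5595 in the siCtrl and siCYLD inhibitor arrays. Of the leukocyte genes, PTPRC read 4.16 to 42.3, LYZ 3.27 to 45.6 and CD14 40.3 to 73.5. CD3E, at 55.2 to 113, passed the filter and was about as bright as KRT14. The ratio of 3' to 5' ACTB control signals, a measure of RNA integrity and labelling, was 3.21 to 3.67 in siCtrl arrays and 2.26 to 2.48 in siCYLD arrays, so it moved with the siRNA. The same ratio for GAPDH, 1.79 to 2.14 in siCtrl arrays and 1.80 to 1.97 in siCYLD arrays, overlapped.

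Connexins are membrane proteins that assemble into hemichannels. Hemichannels of neighbouring cells dock to form gap junctions, through which ions and small metabolites pass from cell to cell. Pannexins are similar in topology but work mainly as single-membrane channels, and PANX1 is known for releasing ATP to the outside of the cell. In stratified epithelia, GJA1 (connexin 43) is the widespread connexin of the basal and lower layers, while GJB2 (connexin 26) and GJB6 (connexin 30) are low in resting interfollicular skin and rise in wounded or hyperproliferative epidermis. GJB2 and GJB6 lie side by side on chromosome 13, with GJA3 on the other side of GJB2, in the RefSeq annotation of GRCh38.p14.

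The upstream sequences of GJB2, its neighbour GJB6, and PANX1 are shown. GJB2 was called for the siRNA and for the inhibitor, and PANX1 for neither. The signal of GJB6 was too low to test, so how its transcript behaved is not known. RefSeq windows were found for 4 of the 6 genes. Each line holds the 250 bases before the annotated start, 5′ to 3′ on the gene's own strand (GRCh38.p14). The GJB2 window is chr13:20192939-20193188, minus strand, the GJB6 window chr13:20230979-20231228, minus strand, and the PANX1 window chr11:94128591-94128840, plus strand. Capitals mark matches to the motifs searched.
GJB2: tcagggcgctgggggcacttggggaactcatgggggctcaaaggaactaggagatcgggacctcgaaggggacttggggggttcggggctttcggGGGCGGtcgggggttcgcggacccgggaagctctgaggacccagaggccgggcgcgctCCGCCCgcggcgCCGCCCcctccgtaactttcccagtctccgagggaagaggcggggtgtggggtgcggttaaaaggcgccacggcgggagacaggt
GJB6: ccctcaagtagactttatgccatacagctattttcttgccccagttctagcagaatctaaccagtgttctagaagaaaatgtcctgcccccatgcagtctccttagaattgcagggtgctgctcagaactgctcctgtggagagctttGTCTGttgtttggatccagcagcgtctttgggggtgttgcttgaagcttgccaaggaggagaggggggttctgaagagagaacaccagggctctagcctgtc
PANX1: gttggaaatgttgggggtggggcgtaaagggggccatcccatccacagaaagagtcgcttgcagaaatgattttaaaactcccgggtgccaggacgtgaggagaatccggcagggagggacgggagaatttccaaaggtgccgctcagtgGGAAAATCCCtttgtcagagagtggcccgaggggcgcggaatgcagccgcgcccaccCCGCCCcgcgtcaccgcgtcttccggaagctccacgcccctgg

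Both strands were searched for GGGCGG (the GC box), TGANTCA (AP-1), CAGAC (a SMAD-binding element in its short form) and the NF-κB motif, none of which overlapped another in these windows. GJB2 held 3 GC boxes in a window of 70% G and C, the first starting 155 bases before the start site, and no match to the other motifs. GJB6 held no GC box and 1 SMAD match (50.8% G and C). PANX1 held 1 GC box and 1 NF-κB match (62% G and C), and GJA1 held 1 AP-1 match. Over 35114 RefSeq windows of the same length, 42.6% held a GC box, 38% a SMAD match, 9.96% an NF-κB match and 6.57% an AP-1 match, so that only the AP-1 and NF-κB matches were of kinds found in under 10% of windows.

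GJB2 rose with the CYLD siRNA. Its probe set read 385 and 347 in the untreated siCtrl arrays and 2230 and 2193 in the untreated siCYLD arrays, a mean signal 6.04 times as high. The groups stood far apart and the duplicates close together. On the log2 scale, after adding 16.06 to each signal, the groups differed by 2.55 ± 0.12 (standard error, 2 arrays against 2; 95% interval 2.29 to 2.80; limma, adjusted p = 1.3e-08). The ACTB ratio given above differed between the same arrays, and its part in this and the other siRNA differences was not tested.

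**Figure D1:**
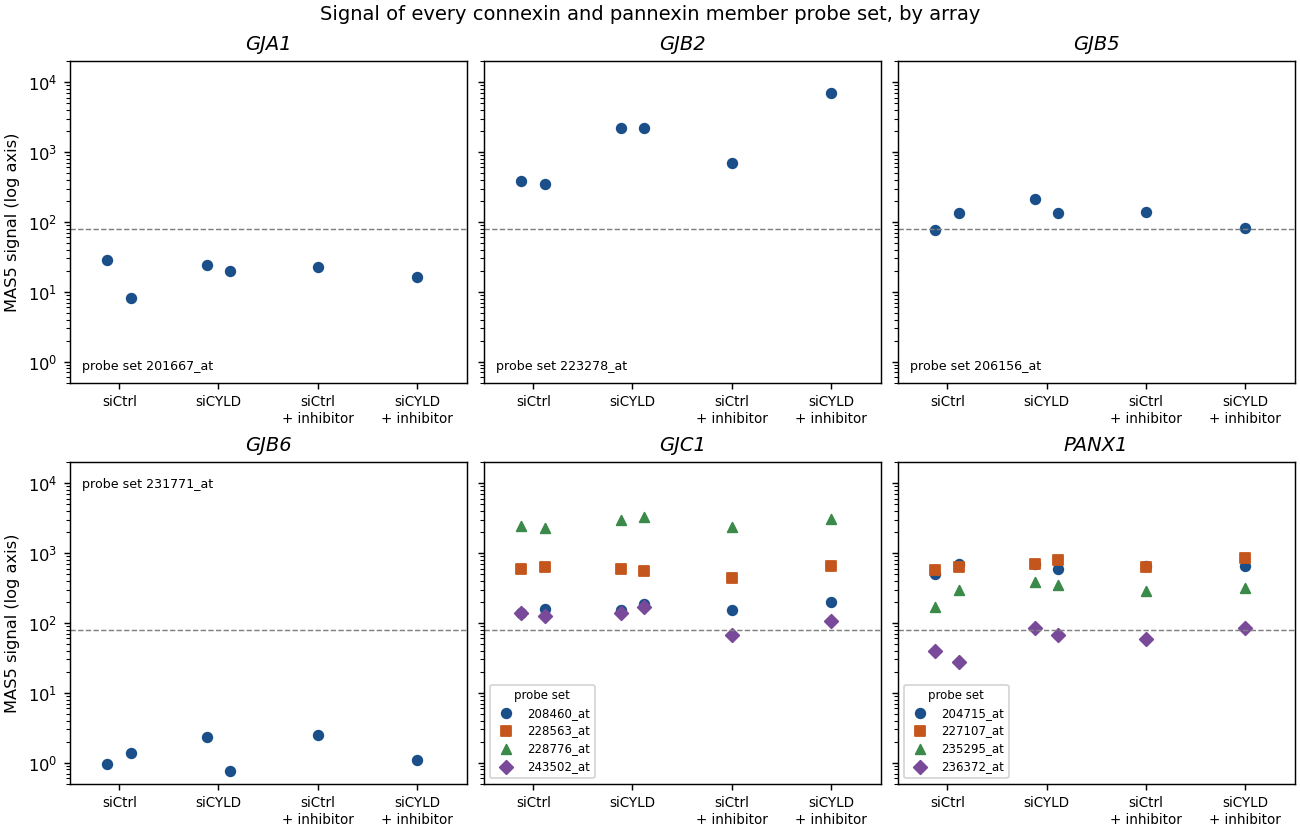
MAS5 signal (log axis) of all 12 probe sets of the 6 genes, 1 point per array, in the 4 groups. The dashed line is the signal of 79.3 that 1 group mean had to exceed. GJB2 climbs from 347 in an untreated siCtrl array to 6997 in the siCYLD inhibitor array, while GJA1 and GJB6 lie below the line on all 6 arrays.

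The inhibitor raised GJB2 as well, in cells of either siRNA. In siCtrl cells the inhibitor array read 694, 1.90 times the untreated mean, and in siCYLD cells it read 6997, 3.16 times the untreated mean. Each inhibitor array lay above both untreated arrays of its siRNA. GJB2 thus passed 2-fold in siCYLD cells but not in siCtrl cells. Over all genes tested, 1.72% were at least 2-fold higher and 1.94% lower with the inhibitor in siCtrl cells. In siCYLD cells 4.55% were higher and 2.94% lower. Across both siRNAs the difference was 1.28 ± 0.16 (log2 ± standard error, 2 inhibitor arrays against 4 untreated; adjusted p = 0.00046, limma). Leaving out the siCtrl inhibitor array gave 1.65 and leaving out the siCYLD inhibitor array gave 0.90, and both were called. With 1 array of each, the siCYLD signal under the inhibitor was 10.1 times the siCtrl signal, a log2 difference of 3.30 that has no replicate check. Of the other 3 tested members none reached 2-fold in that pair, and over all genes tested 3.91% were at least 2-fold higher there and 2.81% lower.

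The inhibitor difference of GJB2 was larger in siCYLD cells (1.65) than in siCtrl cells (0.90). The test of that inequality gave 0.76 ± 0.20 (log2 ± standard error; 95% interval 0.32 to 1.19) and did not pass, with an adjusted p of 0.0909 (limma; unadjusted p = 0.00236). Without siCtrl replicate 2 it passed (0.83, adjusted p = 0.0419). With an offset of 64 in place of 16.06 it also passed (0.81, adjusted p = 0.0496). The range of its adjusted p over all alternatives run was 0.0419 to 0.302. Of all genes tested, 1.67% were called for this inequality, 0.982% upward and 0.688% downward, and of the 4 members 0, although 2 had an unadjusted p under 0.05 (GJB2 and GJB5). The count over all genes, 216 here, was 343 without siCtrl replicate 1, 458 without siCYLD replicate 1 and 362 without siCYLD replicate 2.

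**Figure D2:**
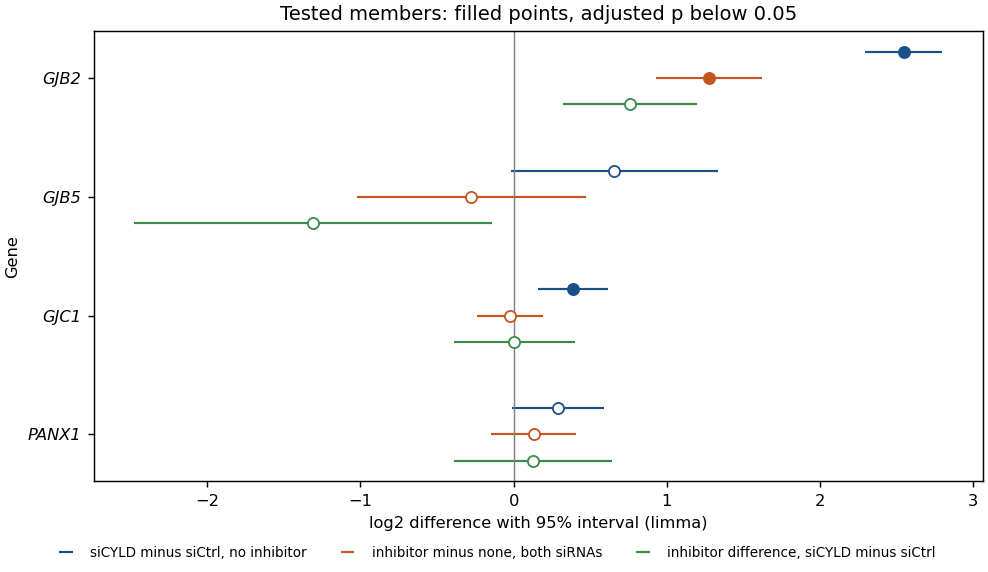
Log2 differences of the 4 tested genes with 95% intervals from limma, for the CYLD siRNA without inhibitor, the inhibitor across both siRNAs, and the inequality of the inhibitor difference between the siRNAs. Filled points passed an adjusted p of 0.05, which 2 genes did for the siRNA (GJB2 and GJC1) and 1 for the inhibitor (GJB2).

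GJC1, which encodes connexin 45, was called higher with the CYLD siRNA, but by a small amount and by 1 of its 4 probe sets. The probe set with the highest mean, which represented the gene, read 2481 and 2310 in untreated siCtrl and 2960 and 3325 in untreated siCYLD, and 2352 and 3093 in the siCtrl and siCYLD inhibitor arrays. Its siCYLD arrays, with or without inhibitor, all lay above its siCtrl arrays. The difference was 0.39 ± 0.11 on the log2 scale (2 arrays against 2; adjusted p = 0.0191, limma). The inhibitor difference of that probe set was -0.02 ± 0.10 (95% interval -0.24 to 0.19; adjusted p = 0.898). The 3 other probe sets had knockdown differences of 0.16, -0.11 and 0.20, with adjusted p of 0.64 to 0.673 when all 24537 kept probe sets were tested one by one.

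The call of GJC1 depended on single arrays and on the choice of probe set. It was lost without siCtrl replicate 2 (0.34, adjusted p = 0.075, limma), without siCYLD replicate 2 (0.30, adjusted p = 0.162) and for the mean of its probe sets (0.16, adjusted p = 0.415). Nor did it hold when the moderation had no intensity trend (adjusted p = 0.12) or in the additive model without both arrays of conflicting labels (0.41, adjusted p = 0.156).

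PANX1 had a higher mean signal in untreated siCYLD than in untreated siCtrl on each of its 4 probe sets, and did not pass the test. The probe set that represented it read 570 and 640 in untreated siCtrl, 686 and 804 in untreated siCYLD, and 633 and 853 in the siCtrl and siCYLD inhibitor arrays. The untreated groups did not overlap. The difference was 0.29 ± 0.14 (log2 ± standard error; 95% interval -0.01 to 0.59; adjusted p = 0.156, limma). It was 0.18 without siCYLD replicate 2, 0.40 without siCYLD replicate 1 and 0.45 in the additive model without both arrays of conflicting labels. The other probe sets differed by 0.14, 0.66 and 0.90, the last of them the dimmest, at 39.7 and 27.2 against 85.5 and 66.2. That dimmest probe set passed the filter on low signals only through the siCYLD inhibitor array, at 84.2. The mean of the 4 probe sets, which includes it, differed by 0.50 (adjusted p = 0.0486, limma), and this is no independent support. The inhibitor difference was 0.13 ± 0.13 (95% interval -0.15 to 0.41; adjusted p = 0.5), and 0.067 to 0.20 when single arrays were left out.

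GJB5, which encodes connexin 31.1, an epidermal connexin, was close to the floor. It read 77 and 133 in untreated siCtrl, 211 and 135 in untreated siCYLD, and 137 and 81.5 in the siCtrl and siCYLD inhibitor arrays. Its untreated groups met almost end to end, at 133 and 135, and the inhibitor array lay above both untreated arrays in siCtrl and below both in siCYLD. No difference of GJB5 passed the test. The knockdown difference was 0.66 with a 95% interval of -0.02 to 1.33 (adjusted p = 0.156, limma). It ran from 0.32 without siCtrl replicate 1 to 0.997 without siCtrl replicate 2. In the additive model without both arrays of conflicting labels, which averages in the inhibitor pair (-0.65), it was 0.027. The inequality of the inhibitor differences was -1.31 with an interval of -2.47 to -0.14 (adjusted p = 0.294).

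GJA1 and GJB6 stayed below the signal needed for a test on all 6 arrays. The GJA1 probe set read 28.9 and 8.02 in untreated siCtrl, 24.2 and 20 in untreated siCYLD, and 22.7 and 16.3 in the siCtrl and siCYLD inhibitor arrays. GJB6 read 0.766 to 2.48 over the 6 arrays. Neither gene gave an order of groups, and with 1 probe set each a low signal cannot be told apart from a probe set that detects its transcript poorly.

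Of the 4 tested members, 2 were called higher with the CYLD siRNA and 0 lower. Over all 12935 genes tested, 21.3% were called, 9.49% higher and 11.8% lower. The untreated arrays did not overlap between the siRNAs for all 4 tested members, as for 60.9% of all genes tested, so that non-overlap says little here. For the inhibitor 1 of the 4 was called, against 20% of all genes, 11.2% higher and 8.82% lower. That background count, 2586 genes, was 1710 without siCtrl replicate 1, 1539 without siCYLD replicate 1, 1654 without siCYLD replicate 2 and 1265 without the siCYLD inhibitor array. The knockdown and inhibitor comparisons share the untreated arrays, so their values for the members are not independent of each other.

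Among the other connexins and pannexins, GJA3 and PANX2 rose with the CYLD siRNA. The list held 18 genes, of which 10 had a probe set of a single symbol and 4 were tested. With the knockdown 2 of the 4 were called higher and 0 lower, against 9.49% and 11.8% of all genes. The list was chosen with earlier results of these data known. GJD2 (-0.27) and GJD3 (0.13), both dim, were not called, so the median of 0.70 (-0.04 over all genes) describes none of the 4. GJA3, the neighbour of GJB2 and best known as a lens connexin, read 160 and 137 in untreated siCtrl, 439 and 416 in untreated siCYLD, and 135 and 527 in the siCtrl and siCYLD inhibitor arrays. Its difference was 1.43 ± 0.18 (log2 ± standard error; adjusted p = 9.4e-05, limma), and unlike GJB2 its siCtrl inhibitor array lay no higher than its untreated siCtrl arrays. The inhibitor difference of GJA3 was 0.09 ± 0.17 (adjusted p = 0.758), and whether it differs from that of GJB2 was not tested. Its other probe set read 6.51 to 21 throughout and was not kept.

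PANX2 had 3 kept probe sets, and the one that represented it moved in opposite directions in the 2 comparisons. It read 342 and 274 in untreated siCtrl and 750 and 783 in untreated siCYLD, a difference of 1.28 ± 0.17 (log2 ± standard error; adjusted p = 0.00015, limma). In the siCtrl and siCYLD inhibitor arrays it read 117 and 167, and across both siRNAs it fell by 1.68 with a standard error of 0.19 (adjusted p = 0.000338). This was the 1 gene of the list called for the inhibitor. Neither PANX2 call held once the _x_at and _s_at probe sets, which can match several transcripts, were left out (1.27, adjusted p = 0.093, and -0.79, adjusted p = 0.262), and the knockdown call was also lost in the additive model without both arrays of conflicting labels (0.81, adjusted p = 0.051). That model averages in the inhibitor pair, where PANX2 differed by 0.46. The inequality of the inhibitor differences of PANX2 was -0.82 (adjusted p = 0.223, limma). The other 2 probe sets had knockdown differences of 1.27 and 0.15 (adjusted p of 0.1 and 0.833 with all kept probe sets tested, limma), and their inequalities, 0.84 and 0.15, had the opposite sign.

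**Figure D3:**
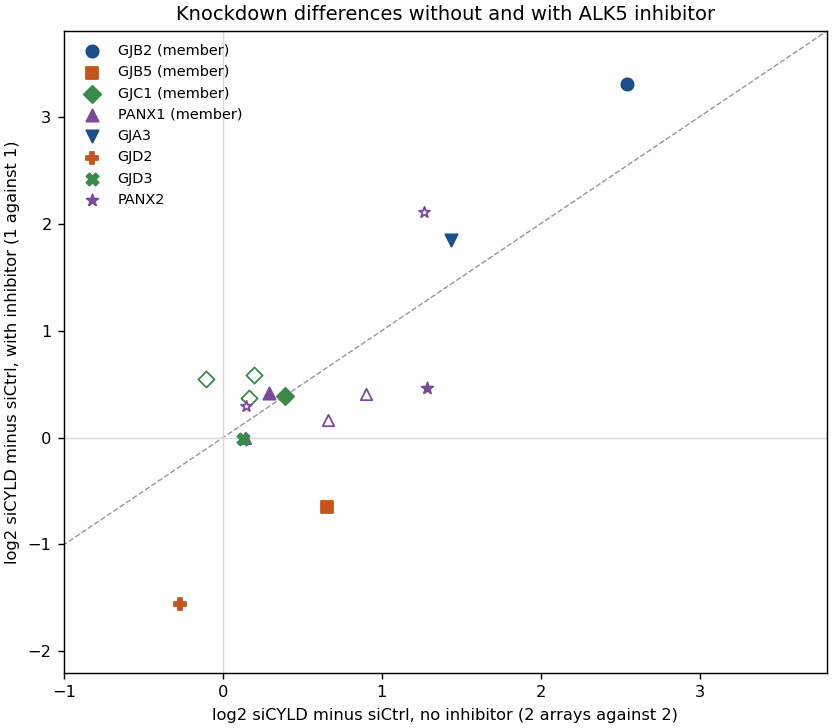
Log2 difference siCYLD minus siCtrl without inhibitor (horizontal, 2 arrays against 2) and with inhibitor (vertical, 1 against 1) for kept probe sets of the members and of other connexins and pannexins. Filled symbols are the probe set that represents a gene, open symbols its other kept probe sets, and the dashed line marks equal differences. GJB2, at 2.55 and 3.30, lies furthest to the upper right, and among the filled symbols GJA3 follows at 1.43 and 1.85.

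Genes for proteins that bind connexins or govern their delivery and turnover moved both ways. Of 20 listed, 17 were tested, and with the CYLD siRNA 3 were higher and 4 lower, with a median of 0.09. Over all genes 9.49% were called higher and 11.8% lower. CAV1, which encodes the membrane scaffold caveolin, read 15435 and 15349 in untreated siCtrl and 8209 and 7949 in untreated siCYLD, a difference of -0.93 ± 0.08 (log2 ± standard error; adjusted p = 3.8e-06, limma). In the siCtrl and siCYLD inhibitor arrays it read 15509 and 14579, so that the siCYLD inhibitor array lay near the siCtrl arrays. The inequality of the inhibitor differences of CAV1 was 0.84 ± 0.14 (adjusted p = 0.00757), the 1 call of this list in that test. It was lost with no filter (adjusted p = 0.108) and without the intensity trend (adjusted p = 0.254). The actin-binding gene CTTN rose by 0.51 and the desmosomal plakophilin gene PKP2 fell by 0.49. In the additive model without both arrays of conflicting labels all 7 knockdown calls of this list were lost (adjusted p of 0.0949 for CAV1 to 0.52, limma). That model averages in the inhibitor pair, so it does not estimate the untreated difference alone. In the inhibitor pair CAV1 differed by -0.09 and TJP1 by -0.42, against -0.93 and -0.35 untreated. Without the intensity trend all knockdown calls but that of CAV1 were lost (adjusted p of 0.059 for CTTN and 0.071 for PKP2, limma). Besides CAV1, CTTN and PKP2, the other 4 calls, that of the tyrosine kinase gene SRC among them, were lost without siCtrl replicate 2 (adjusted p of 0.0552 to 0.37), and each also without 1 of the siCYLD duplicates. EZR, another of these 4 calls, was at -0.31 on the probe set that represented it. Its other kept probe sets differed by -0.73, -0.62 and -0.96 (adjusted p of 0.000454 to 0.00414 with all kept probe sets tested, limma). The other kept ones of SRC went both ways, at -0.22 and 0.75, and were not called. For the inhibitor 0 genes of the list were higher and 2 lower (11.2% and 8.82% of all genes), with a median of -0.13. These were TJP1 (-0.33), the gene of the junction scaffold ZO-1, and CSNK1D (-0.35), and both calls were lost without siCtrl replicate 2, without either siCYLD duplicate and without the siCYLD inhibitor array (adjusted p of 0.0512 to 0.25).

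Of the genes for extracellular ATP handling and purinergic receptors, which act on what PANX1 channels release, 11 of 19 were tested. With the CYLD siRNA 2 were higher and 1 lower (9.49% and 11.8% of all genes), with a median of 0.06. The adenosine receptor gene ADORA2B read 3223 and 3999 in untreated siCtrl, 1647 and 1790 in untreated siCYLD, and 5350 and 4568 in the siCtrl and siCYLD inhibitor arrays. It fell by 1.06 with the siRNA (adjusted p = 2.7e-05, limma) and rose by 0.99 ± 0.17 with the inhibitor (adjusted p = 0.00271). The inhibitor difference was 0.57 without the siCYLD inhibitor array and 1.40 without the siCtrl inhibitor array, and was called in both. Its knockdown call was lost in the additive model without both arrays of conflicting labels (-0.54, adjusted p = 0.0793). That model averages in the inhibitor pair, where ADORA2B differed by -0.23. ENTPD2, an enzyme that degrades extracellular ATP, rose by 0.77 ± 0.15 with the siRNA, from 406 and 452 to 802 and 687 (adjusted p = 0.00226, limma). The ATP receptor gene P2RY2 was called at 0.54, and lost the call without any 1 of the 4 untreated arrays (adjusted p of 0.0599 to 0.131). With the inhibitor 3 were higher and 0 lower (11.2% and 8.82% of all genes), with a median of 0.11 against 0.01 over all genes. Besides ADORA2B these were NT5E (0.45) and P2RX5 (0.42). NT5E was at 0.11 without the siCtrl inhibitor array (adjusted p = 0.599, limma) and at 0.79 without the siCYLD inhibitor array, and its call was also lost without any 1 of the 4 untreated arrays. With the siCYLD inhibitor array left out, P2RX5 was at 0.27 (adjusted p = 0.216), and its call was also lost without siCtrl replicate 1 and without either siCYLD duplicate.

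The genes whose values over the 6 arrays were most like those of GJB2 were MTSS1, TNFAIP3 and L1CAM. Likeness was the root mean square difference between log2 values, each gene centred on its own mean, and came to 0.43, 0.44 and 0.45 among 12934 genes searched. MTSS1, which encodes an actin and membrane-bending protein, read 1397 and 1358 in untreated siCtrl, 6051 and 6154 in untreated siCYLD, and 2135 and 10510 in the siCtrl and siCYLD inhibitor arrays. TNFAIP3, the gene of the NF-κB feedback inhibitor A20, read 668 and 610, then 1978 and 2031, then 574 and 7327 in the same order. It shared the highest value in the siCYLD inhibitor array with GJB2, but its siCtrl inhibitor array lay below the untreated siCtrl arrays. L1CAM, an adhesion molecule gene, read 576 and 606, then 3685 and 3631, then 998 and 4825. For GJC1 the nearest were BASP1, POFUT4 and ATP13A2, at 0.03, 0.03 and 0.04, where the small range of GJC1 itself leaves many genes near it.

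**Figure D4:**
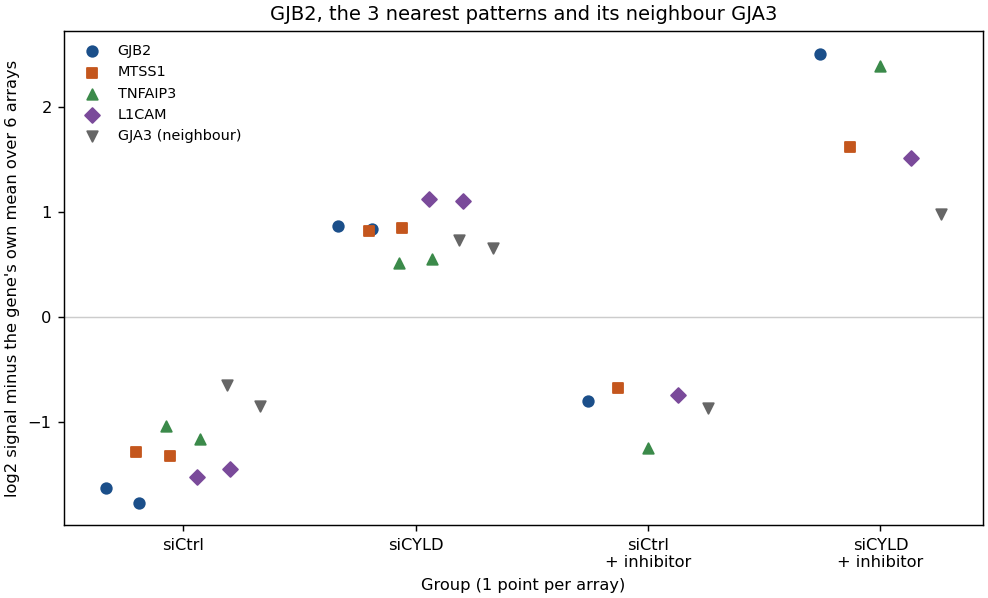
Log2 values, each gene centred on its own mean over the 6 arrays, for GJB2, the 3 genes nearest to it and its neighbour GJA3, 1 point per array in the 4 groups. All 5 genes are higher in every siCYLD array than in every siCtrl array, and the siCtrl inhibitor array lies above the untreated siCtrl arrays for GJB2, MTSS1 and L1CAM, and below them for TNFAIP3 and GJA3.

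Markers of other cell types were checked beside the siRNA and inhibitor differences of GJB2. The summed signal of 4 endothelial markers was 245 to 356 in untreated arrays and 955 and 860 in the siCtrl and siCYLD inhibitor arrays. CDH5 accounted for most of that rise, at 5.83 to 63 in untreated arrays against 587 and 462. VWF was also higher, at 25 to 71.4 in untreated arrays against 169 in both inhibitor arrays, while PECAM1 read 188 to 216 and CLDN5 8.87 to 17.1 on all 6 arrays. The summed signal of 7 fibroblast markers was 716 to 822 in siCtrl arrays and 838 to 914 in siCYLD arrays. Every siCYLD array thus lay above every siCtrl array, with or without inhibitor. COL1A1 had that order itself, at 284 to 326 in siCtrl and 366 to 399 in siCYLD arrays. PDGFRB (228 to 307 and 228 to 277) and DCN (27.6 to 121 and 62.7 to 131) overlapped, and 3 of the 7 stayed below the filter signal on all arrays. The summed signal of 4 leukocyte markers was 141 to 187 in siCtrl arrays and 170 to 206 in siCYLD arrays, and overlapped. The part of any such cells in the GJB2 values was not tested.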

How the data were processed

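RNA of 6 samples was measured on 1 array each, starting from 2 µg of total RNA per the labels' protocols. The deposited values are linear intensities, 1 for each probe set on each array, which the authors obtained with MAS5 according to the submitters' processing notes; which version is not given in the sources used here. In the platform annotation 41091 of 54675 probe sets had 1 gene symbol, 1801 several and 11721 none, and 62 were controls. Entrez identifiers of 41037 matched the RefSeq gene table, with 0 symbols changed. Precision is limited by the number of arrays.

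An offset of 16.06, the 20th percentile, was added to each signal before taking log2, without rescaling, so changes of dim genes are understated. A gene with several kept probe sets took the one of highest mean. limma 3.58.1 (R 4.3.3) was used with an intensity trend and Benjamini-Hochberg adjustment over 12935 genes, two-sided, and an adjusted p below 0.05 was a call. Knockdown and inequality came from a model of 4 group means (2 residual and 10.9 prior degrees of freedom), and the inhibitor difference from an additive model (3 and 7.98). Inhibitor groups of 1 array borrow their spread from the duplicates. The fits were tested on simulated data. The members and lists were chosen with earlier results of these data known. Named were the 6 members, CYLD, and at most the 4 called genes of largest difference per list and comparison. The 3 genes most similar to each called member were named too, and EZR for the spread among its probe sets. Replicate numbers were not taken to pair arrays, since no label says what a number shares. Alternatives varied the offset, filter, scaling, probe set rule, features tested, moderation, arrays and labels. Figures used matplotlib 3.10.9.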

Additional observations from a re-analysis of the deposited data

How the results depend on the processing

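The rise of GJB2 with the CYLD siRNA kept its direction and its call under every alternative but 1, and its rise with the inhibitor under every alternative run. The exception was grouping untreated arrays by source name, which puts 1 array of each title in each group and so cancels a difference between titles: GJB2 was then at -0.085 (adjusted p = 0.999, limma), 0 genes and 0 members were called (104 genes at unadjusted p under 0.05), and CYLD (0.0080), ADORA2B (0.21), ENTPD2 (-0.034), GJA3 (-0.14), P2RY2 (-0.016), PANX2 (-0.12), PKP2 (0.11), SRC (-0.43) and TJP1 (0.031) changed sign. For the knockdown, 1219 genes and 1 member were called without the intensity trend, and 963 genes and 1 member in the additive model without both arrays of conflicting labels, against 2757 and 2. Leaving out single arrays gave 2111 to 2827 genes and 1 to 2 members. For the inhibitor, 1087 genes were called without the trend and 1257 without both arrays, against 2586, and 1265 to 2926 without single arrays, with 1 member in each. For the inequality, 33 genes were called with no filter, 95 for the mean of probe sets, 134 without _x_at and _s_at probe sets and 0 without the trend (1480 at unadjusted p under 0.05, limma), against 216. It had 288 to 458 genes and 0 to 1 members without single arrays, and 1 member with an offset of 64. The inhibitor difference of GJB5 changed sign, from -0.93 to 0.38 without single arrays, and was 0.041 without both arrays of conflicting labels. Those 2 ends are its differences in siCYLD and in siCtrl cells, which went opposite ways. The inhibitor difference of GJC1 (-0.059 to 0.013 without single arrays) also changed sign. So did the inequality for GJC1 (-0.078 to 0.088 without single arrays) and for PANX1 (-0.25 for the mean of probe sets). With the replicate block on the 4 untreated arrays 3716 genes were called, against 2867 in the same arrays without it (a fit added after seeing the data), with 2 members in either. Deviations of same-numbered arrays correlated at 0.045 across genes. The inequality could not be fitted without an inhibitor array. Signals near the floor limit GJA1 and GJB6, and signals not far above the filter limit GJB5.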
